A study of Mus musculus with 6 samples.

Results

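The genes described here encode dystrophin (Dmd), its homologue utrophin (Utrn), dystroglycan (Dag1), 4 sarcoglycans (Sgca, Sgcb, Sgcd and Sgce), beta-2-syntrophin (Sntb2), alpha-dystrobrevin (Dtna) and the membrane repair protein dysferlin (Dysf). They were picked by symbol as a named family, with earlier results of these data known, and all 10 were found among the 22375 rows of the deposited FPKM table. FPKM is the number of fragments scaled to transcript length and library size. It allows levels of genes and libraries to be set side by side. FPKM values need not add up to the same sum in each library, so comparisons between libraries also depend on the scaling. Poly(A)-selected RNA of C2C12 myoblasts, an established mouse muscle precursor line, was sequenced in 2 groups of 3 libraries. The CON group was not stretched, and the 4H group underwent cyclic stretching at 15% elongation for 4 h on elastic plates coated with poly-lysine. Both groups were cultures of the same unmodified line in growth medium with serum, with no transgene, knockdown or added agent in the labels of these libraries. The labels call the 3 libraries of a group replicate biosamples and do not say that they came from separate cultures, so the p-values measure the spread between these samples, which may be technical.

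Dystrophin and utrophin are large rod-shaped proteins that tie cortical actin to dystroglycan, a laminin receptor of the plasma membrane. The sarcoglycans form a complex beside dystroglycan and stabilise it, while dystrobrevin and the syntrophins bind the end of dystrophin or utrophin on the inner face of the membrane and recruit signalling proteins. Together they protect the muscle fibre membrane during contraction, and dysferlin acts after that protection fails, as a calcium sensor of the vesicles that patch a torn membrane.

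Stretching for 4 h was accompanied by a higher level of 2 of the 10 genes, Dysf and Utrn, and by a small decrease of Sgcb, a call that was lost in 7 of 18 alternative settings. Dysf rose from 1.62 ± 0.01 to 3.11 ± 0.11 FPKM and Utrn from 14.4 ± 0.48 to 21.1 ± 0.78 FPKM (mean ± SD, n = 3). Dag1, Sgcd, Sgce, Sntb2 and Dtna did not pass the test, Sgca lay under the filter on low values, and Dmd was listed at 0 in all 6 libraries. Every gene averaging 0.5 FPKM or more was tested with limma on log2(FPKM + 0.5), with p adjusted over all 11593 such genes, and each log2 fold change below is 4H against CON on that scale, which understates the change of low genes. Of the 8 members tested, 2 were higher at an adjusted p of at most 0.05, where 22.6% of all genes tested were, and 1 was lower, where 24.1% were. None of the 8 also reached an absolute log2 fold change of 1, against 3.88% of all genes tested. The libraries of the groups did not overlap for 4 of the 8 (Utrn, Dysf, Sgcb and Sgce), a share no higher than the 56.7% seen over all genes tested. The median log2 fold change of the 8 was −0.02, beside −0.01 for all genes.

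**Figure D1:**
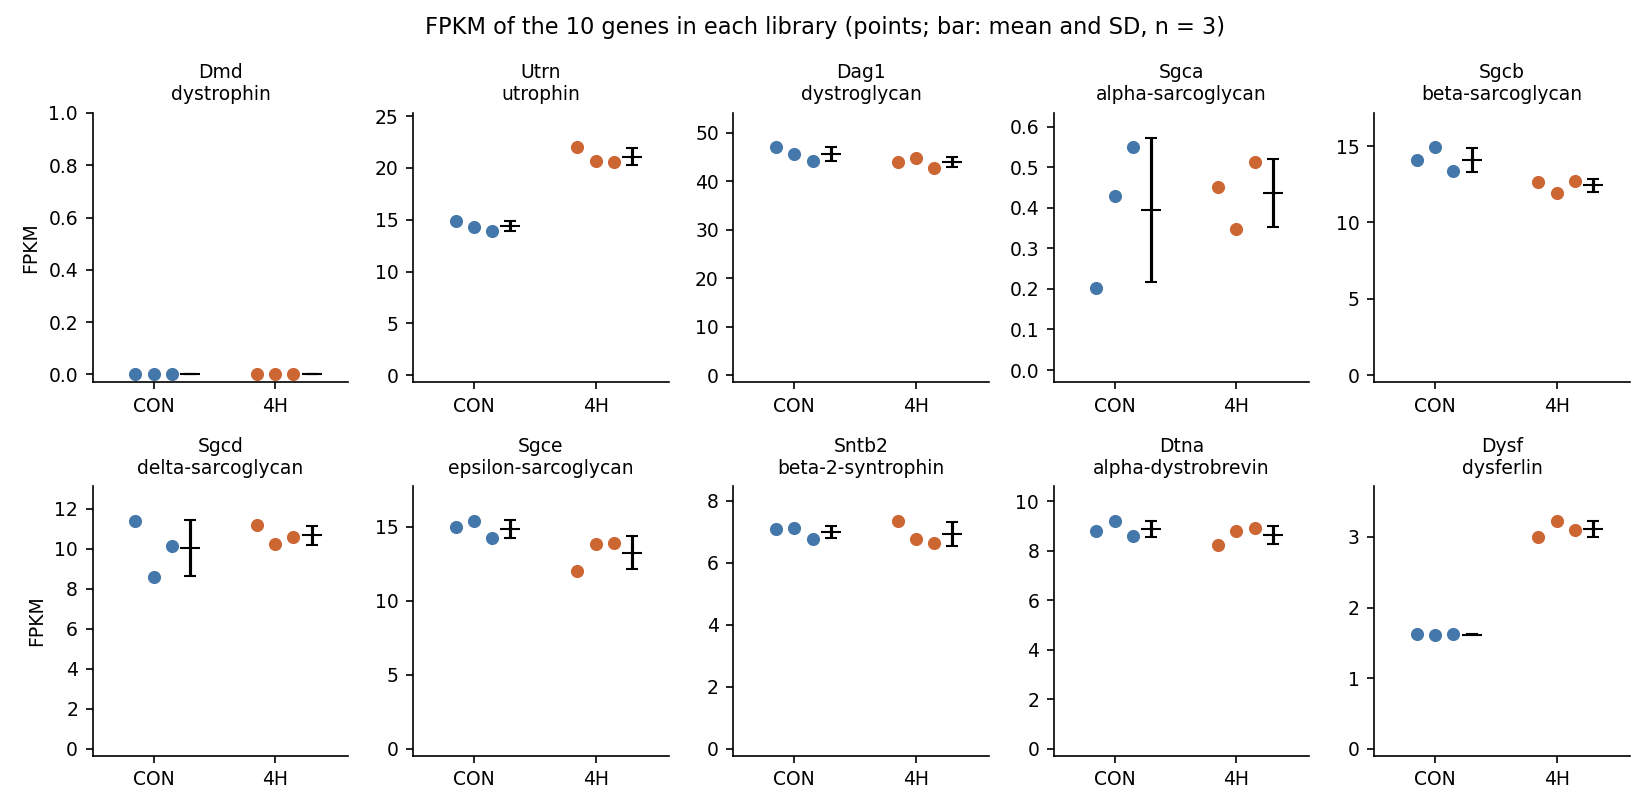
FPKM of each of the 10 genes (vertical axis, starting at or just under 0, its own scale in each panel) in the 3 CON libraries (blue) and the 3 4H libraries (orange), with the mean and SD of each group in black. The 4H points of Utrn (20.6 to 22.0) and Dysf (3.00 to 3.23) sit above all CON points, those of Sgcb and Sgce sit under them, the groups of Dag1, Sgca, Sgcd, Sntb2 and Dtna overlap, and Dmd is at 0 throughout.

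The libraries were alike in depth. The relative depth read from the steps between low FPKM values differed by at most 1.55% over the 15 pairs of libraries. FPKM sums ran from 395790 to 397260 in the CON group and from 385146 to 387516 in the 4H group. The cells carried the markers of their label. All 8 myoblast markers were detected, with a summed level of 195.1 to 201.4 FPKM in CON and 285.6 to 300.8 FPKM in 4H, where 7 passed the test as higher and Myf5 as lower. Myotube markers were near the floor, as 3 of 14 (Myh8, Actn2 and Mymx) were at 0 in all libraries and the 14 summed to 1.14 to 1.48 FPKM in CON and 2.24 to 3.41 FPKM in 4H. Mymk, the only one of them tested, was higher (0.525 ± 0.16 and 1.01 ± 0.12 FPKM, limma adjusted p = 0.0194), and Myh7, Tnni1, Tnnt3 and Ttn, each under 1 FPKM, were higher in all 4H libraries than in all CON libraries. Myog (0.217 ± 0.07 and 0.0265 ± 0.05 FPKM) and Myh1 (0.0531 ± 0.04 FPKM in CON and 0 in 4H), untested at these levels, were lower in all 4H libraries, and Ckm and Tnnc2 were listed at 0 in 4H. Of 5 macrophage markers, the defining genes Ptprc and Adgre1 were at 0 in all libraries, although the sum of the 5 went from 6.82 to 8.55 FPKM in CON to 16.6 to 18.6 FPKM in 4H, most of it Cd68. Both macrophage markers tested were higher in 4H, and of these Csf1r was listed at 0, 0 and 0.0272 FPKM in CON and had 1.48, 0.966 and 0.792 FPKM in 4H (limma adjusted p = 0.000231). Endothelial markers summed to 0.101 to 0.122 FPKM in CON and 0.254 to 0.387 FPKM in 4H, and adipocyte markers, with Plin1 at 0, to 0 to 0.111 and 0.311 to 0.707 FPKM. Schwann cell markers, with Sox10 at 0, summed to 0.624 to 0.996 FPKM in CON and 0.462 to 0.805 FPKM in 4H. The part of the differences in marker levels in the results below was not tested. In bulk RNA, fewer cells of one kind and less RNA per cell cannot be told apart.

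Dmd (ENSMUSG00000045103, chrX:82948870-85206141 in GRCm38, plus strand) encodes dystrophin, the protein lost in Duchenne muscular dystrophy. It was listed at 0 FPKM in CON replicates 1, 2 and 3 and in 4H replicates 1, 2 and 3. The row therefore held no value to compare, and no ratio of another member to Dmd could be formed. Of the rows of the table, 5799 (25.9%) were at 0 in all 6 libraries. By contrast, none of 61 genes that nearly every cell uses, a list drawn up after the table was seen, was at 0 in any library, and their lowest value was 4.42 FPKM. An exact 0 in a table without counts can be a failed estimate, and whether the zeros of Dmd reflect the cells or the quantification of a gene with a very long transcript was not tested.

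Utrn (ENSMUSG00000019820, chr10:12382188-12869365, minus strand) encodes utrophin, which is found along the membrane of immature muscle and can stand in for dystrophin. The CON libraries had 14.9, 14.3 and 13.9 FPKM, and the 4H libraries had 22.0, 20.7 and 20.6 FPKM. The lowest 4H library was well above the highest CON library, so the groups did not overlap. The 4H mean was 1.47 times the CON mean, a log2 fold change of 0.54 (SE 0.05, 95% interval 0.43 to 0.65, adjusted p = 5.48e-05). The call held under all 18 alternative settings, with a log2 fold change of 0.48 to 0.58. The longest annotated transcript of Utrn has 12382 bases. Of the 263 tested genes with a longest transcript of at least 10000 bases, 29.3% were higher and 13.3% lower, beside 22.5% and 24.5% of 11163 shorter genes. With a trend on length and GC content removed from each library, the log2 fold change of Utrn was 0.48 (adjusted p = 6.94e-05).

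Dag1 (ENSMUSG00000039952, chr9:108204634-108263958, minus strand) encodes the precursor that is cleaved into alpha- and beta-dystroglycan, the outer and membrane-spanning parts of the laminin receptor. It was the most abundant of the 10 genes in both groups, at 47.0, 45.7 and 44.1 FPKM in CON and 44.0, 44.9 and 42.8 FPKM in 4H. The groups overlapped, and the log2 fold change was −0.05 (95% interval −0.14 to 0.03, adjusted p = 0.280). An adjusted p under the threshold was obtained under only 1 of the 18 alternatives, the removal of the length and GC trend (log2 fold change −0.12, adjusted p = 0.0287). The mRNA levels of Dag1 and Utrn were also set against each other within each library, which says nothing of their proteins. The ratio of Dag1 to Utrn was 3.16, 3.19 and 3.17 in CON and 2.00, 2.17 and 2.08 in 4H. The groups were far apart relative to their spread, with a difference of −0.61 on the log2 scale. The two-sided exact permutation p was 0.1, the smallest that 3 against 3 libraries can give, or 0.15 after adjustment over the 6 pairs of genes compared.

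**Figure D2:**
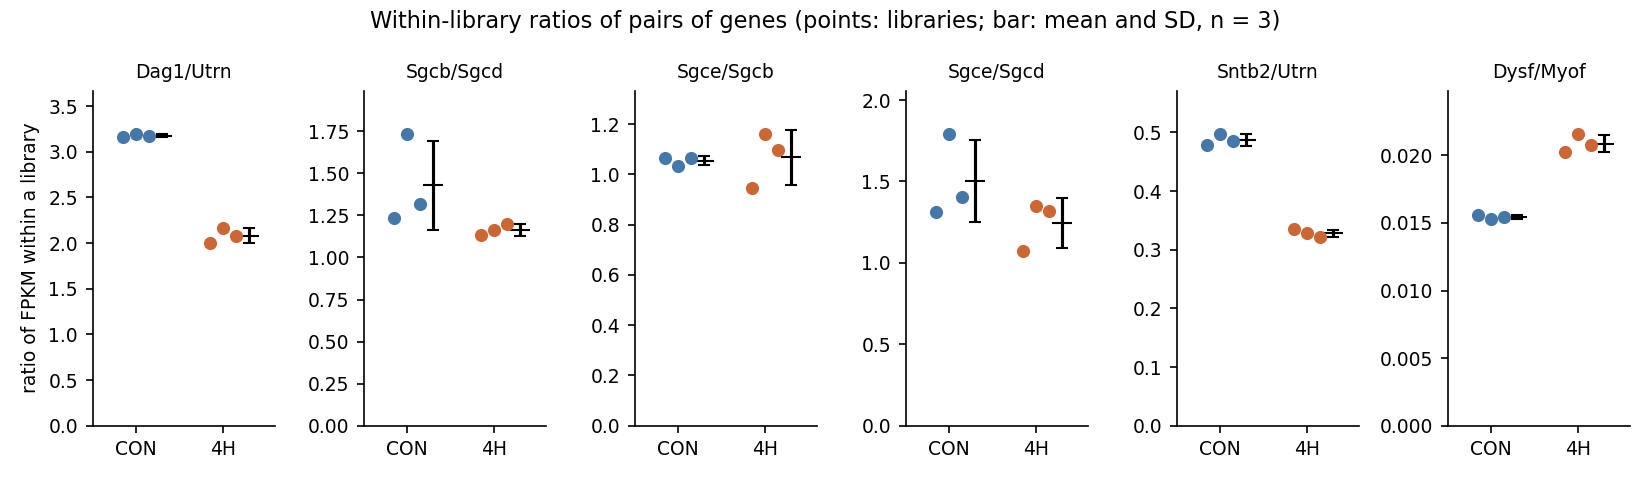
Ratio of the FPKM of 2 genes within each library (vertical axis, no unit, own scale in each panel from 0) for 6 pairs, in CON (blue) and 4H (orange), with the mean and SD of 3 libraries in black. Dag1/Utrn and Sntb2/Utrn are lower in all 4H libraries and Dysf/Myof is higher, while Sgce/Sgcb and Sgce/Sgcd overlap and the CON points of Sgcb/Sgcd are spread from 1.23 to 1.73.

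The sarcoglycan genes were measured at widely different levels. Sgca (ENSMUSG00000001508, chr11:94962791-94976327, minus strand), the alpha subunit that is typical of differentiated skeletal and cardiac muscle, had 0.203, 0.430 and 0.552 FPKM in CON and 0.451, 0.347 and 0.514 FPKM in 4H. The groups overlapped, and the mean over the 6 libraries was under the filter of 0.5 FPKM, so Sgca was not tested. Without the filter, its log2 fold change was 0.08 (adjusted p = 0.725). Sgce (ENSMUSG00000004631, chr6:4674350-4747207, minus strand), the epsilon subunit that takes the place of alpha in many tissues, was far more abundant, with 15.0, 15.4 and 14.2 FPKM in CON and 12.0, 13.9 and 13.9 FPKM in 4H. All 4H libraries lay under all CON libraries, by a margin at the nearest points smaller than the spread within either group, and 4H replicate 1 was the lowest. The log2 fold change of Sgce was −0.16 (SE 0.07, 95% interval −0.32 to −0.00), and the adjusted p of 0.0854 did not pass the threshold, nor did that of any of the 18 alternatives (0.0751 to 0.233). When 4H replicate 1 was left out, its log2 fold change was −0.09.

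Sgcb (ENSMUSG00000029156, chr5:73632749-73647790, minus strand) encodes beta-sarcoglycan, which forms with delta-sarcoglycan the core of the complex. Its levels were 14.1, 14.9 and 13.3 FPKM in CON and 12.7, 11.9 and 12.7 FPKM in 4H, with no overlap. The log2 fold change was −0.18 (SE 0.06, 95% interval −0.31 to −0.04, adjusted p = 0.0363). This was a narrow call. It was lost when CON replicate 1 (adjusted p = 0.0815) or 2 (0.112) or any of 4H replicates 1 (0.0596), 2 (0.108) and 3 (0.0588) was left out, after rescaling to TPM (0.0876) and with the replicate number as a block (0.0763), while the direction was kept in all 18 alternatives. Sgcd (ENSMUSG00000020354, chr11:46896253-47988969, minus strand), the delta subunit, had 11.4, 8.61 and 10.1 FPKM in CON and 11.2, 10.3 and 10.6 FPKM in 4H. The groups overlapped, with CON replicates 1 and 2 at the outer ends of all 6 values. The log2 fold change was 0.09 (95% interval −0.13 to 0.31, adjusted p = 0.469), and without CON replicate 2 it was −0.01.

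The 4 sarcoglycan genes together summed to 39.4 ± 1.22 FPKM in CON and 36.8 ± 0.79 FPKM in 4H. Of this sum, Sgce held 37.7% in CON and 36.0% in 4H, Sgcb 35.8% and 33.8%, Sgcd 25.5% and 29.0%, and Sgca 1.01% and 1.19%. The order of the mean shares was the same in both groups, but Sgcb stood above Sgce in 4H replicate 1 (34.9% and 33.0%). The share of Sgcd was lowest in CON replicate 2, at 21.9%. The ratio of Sgcb to Sgcd was 1.43 ± 0.27 in CON and 1.17 ± 0.04 in 4H, without overlap (log2 difference −0.28, exact permutation p = 0.1, adjusted p = 0.15). Much of this difference came with CON replicate 2, where the ratio was 1.73, and without it the log2 difference was −0.13. The ratio of Sgce to Sgcd was 1.5 ± 0.25 in CON and 1.25 ± 0.15 in 4H and overlapped (log2 difference −0.26, exact permutation p = 0.3, adjusted p = 0.36). Its log2 difference was −0.13 without CON replicate 2 and −0.16 without 4H replicate 1. The ratio of Sgce to Sgcb was close to 1 in both groups, at 1.05 ± 0.02 and 1.07 ± 0.11 (exact permutation p = 1).

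Dtna (ENSMUSG00000024302, chr18:23415135-23659715, plus strand) encodes alpha-dystrobrevin, which holds syntrophins in the complex. It had 8.80, 9.20 and 8.57 FPKM in CON and 8.23, 8.79 and 8.90 FPKM in 4H, with overlapping groups. The log2 fold change was −0.03 (95% interval −0.17 to 0.10, adjusted p = 0.670). Exons of Dtna overlap those of Gm47898 on the other strand. The libraries were made strand-specific according to the labels, but whether the quantification used strand is unknown here, so reads of such neighbours may not have been separated.

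Sntb2 (ENSMUSG00000041308, chr8:106935750-107019714, plus strand) encodes beta-2-syntrophin, a scaffold that binds utrophin and dystrobrevin. The CON libraries had 7.10, 7.11 and 6.76 FPKM and the 4H libraries 7.36, 6.78 and 6.64 FPKM, with full overlap. The log2 fold change was −0.01 (95% interval −0.16 to 0.14, adjusted p = 0.883). The ratio of Sntb2 to Utrn went from 0.487 ± 0.01 in CON to 0.328 ± 0.01 in 4H, without overlap (log2 difference −0.57, exact permutation p = 0.1, adjusted p = 0.15).

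Dysf (ENSMUSG00000033788, chr6:84008590-84211060, plus strand) encodes dysferlin, whose loss causes limb-girdle and distal muscular dystrophies. The RefSeq promoter table (GRCm38.p6) holds 2 windows for Dysf, 1 for Utrn and 1 for Sgcb, and the 250 bases before each start are shown because these are the members past the test. The first Dysf start lies 8 bases from the start of the GENCODE gene, and the second lies 10796 bases from it. The Utrn start lies 7630 bases and the Sgcb start 53 bases from the start of the GENCODE gene. The second Dysf window and the Utrn window thus lie inside the annotated genes, and either may not be the main promoter of its gene. All 4 are written 5′ to 3′ on the strand of the gene, and capitals mark matches to the motifs named after them.
Dysf, chr6:84008348-84008597, plus strand: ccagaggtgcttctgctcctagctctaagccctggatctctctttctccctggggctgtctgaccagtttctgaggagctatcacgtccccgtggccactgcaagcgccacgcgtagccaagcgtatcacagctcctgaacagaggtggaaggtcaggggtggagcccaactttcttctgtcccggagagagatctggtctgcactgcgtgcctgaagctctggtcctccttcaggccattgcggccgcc
Dysf, chr6:84019136-84019385, plus strand: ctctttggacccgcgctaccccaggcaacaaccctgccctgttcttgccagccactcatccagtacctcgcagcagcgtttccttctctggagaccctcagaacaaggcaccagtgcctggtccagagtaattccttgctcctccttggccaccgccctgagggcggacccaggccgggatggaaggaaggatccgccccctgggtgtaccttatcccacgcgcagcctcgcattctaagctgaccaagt
Utrn, chr10:12861736-12861985, minus strand: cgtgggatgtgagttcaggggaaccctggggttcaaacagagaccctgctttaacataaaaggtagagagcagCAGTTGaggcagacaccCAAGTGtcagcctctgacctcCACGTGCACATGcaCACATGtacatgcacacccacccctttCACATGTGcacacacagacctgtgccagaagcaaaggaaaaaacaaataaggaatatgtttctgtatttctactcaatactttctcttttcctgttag
Sgcb, chr5:73647738-73647987, minus strand: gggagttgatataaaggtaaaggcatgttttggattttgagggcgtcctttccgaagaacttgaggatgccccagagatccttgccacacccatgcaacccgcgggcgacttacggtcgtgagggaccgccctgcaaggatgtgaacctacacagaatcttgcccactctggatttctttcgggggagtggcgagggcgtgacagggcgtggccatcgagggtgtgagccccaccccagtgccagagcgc
The windows were searched on both strands for the E-box CANNTG, the AP-1 site TGANTCA, the TEAD site GGAATG and the CArG box. The Utrn window, inside the gene, held 7 E-box matches, some of which overlap each other or abut, and no match to the other motifs. The Dysf and Sgcb windows held no match to any of the 4. Over 32841 promoter windows of the same length, 66.2% held an E-box, 6.75% an AP-1 site, 12.6% a TEAD site and 1.47% a CArG box. A match is a description of the letters and not a bound site, and a missing match says only that these letters are not in the window.

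Dysf had 1.62, 1.61 and 1.63 FPKM in CON and 3.00, 3.23 and 3.10 FPKM in 4H. The CON libraries were nearly identical, and all 4H libraries lay well above them. The 4H mean was 1.92 times the CON mean, a log2 fold change of 0.77 (SE 0.09, 95% interval 0.57 to 0.97, adjusted p = 0.000181), the largest change among the 8 members tested. It held in the 17 alternatives that tested the gene, with a log2 fold change of 0.65 to 0.90. A filter at a mean of 5 FPKM removed the gene. Exons of Dysf overlap those of Gm15475 and Gm33024 on the other strand. The genes whose log2(FPKM + 0.5) ran most like that of Dysf over the 6 libraries included Ociad2 and Smim36, with Pearson's r of 0.99985 and 0.99974. These values describe a step between 2 groups of 3 and share libraries and scaling, so no p is given. Ociad2 had 0.799 ± 0.02 FPKM in CON and 2.43 ± 0.15 FPKM in 4H, and Smim36 had 3.33 ± 0.04 and 10.4 ± 0.65 FPKM.

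By mean level, the order in CON was Dag1, Sgce, Utrn, Sgcb, Sgcd, Dtna, Sntb2, Dysf, Sgca and Dmd. The libraries of Sgce and Utrn, of Utrn and Sgcb, and of Sgcd and Dtna overlapped, so these neighbours did not differ beyond their spread. In 4H the order was Dag1, Utrn, Sgce, Sgcb, Sgcd, Dtna, Sntb2, Dysf, Sgca and Dmd. There Utrn stood apart from Sgce, and Sgce and Sgcb were the only neighbours with overlapping libraries. The move of Utrn to second place was the one change of order.

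The remaining genes of the dystrophin and repair pathways were read from 7 lists of 100 gene names. Of 10 other subunits of the dystrophin complex, 5 were tested, 1 was higher, 1 was lower and 3 did not pass, with a median log2 fold change of −0.02. Sntb1, the beta-1 paralogue of Sntb2, had 0.830, 0.768 and 0.731 FPKM in CON and 2.81, 2.03 and 3.18 FPKM in 4H (log2 fold change 1.30, adjusted p = 0.000224). All its 4H libraries were thus above all CON libraries, yet its level in 4H was still under that of Sntb2. Dtnb, the paralogue of Dtna, had 5.25 ± 0.64 FPKM in CON and 4.01 ± 0.64 FPKM in 4H (log2 fold change −0.36, adjusted p = 0.0455). That call was lost in 9 of 17 alternatives, namely the fits that left out CON replicate 1 (0.144), 2 (0.0637) or 3 (0.0627), or 4H replicate 1 (0.126) or 2 (0.0911), without a low filter (0.0889), rescaled to TPM (0.0668) and without a variance trend (0.0601), and with a replicate block (0.0883). The paralogue Drp2 of dystrophin (3.40 and 3.33 FPKM in CON and 4H) and sarcospan, Sspn (5.92 and 6.85 FPKM), did not pass, with adjusted p of 0.811 and 0.0990. Sgcz and Sntg1 had at most 0.0242 FPKM in any library, and Sntg2 was at 0 in all of them.

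**Figure D3:**
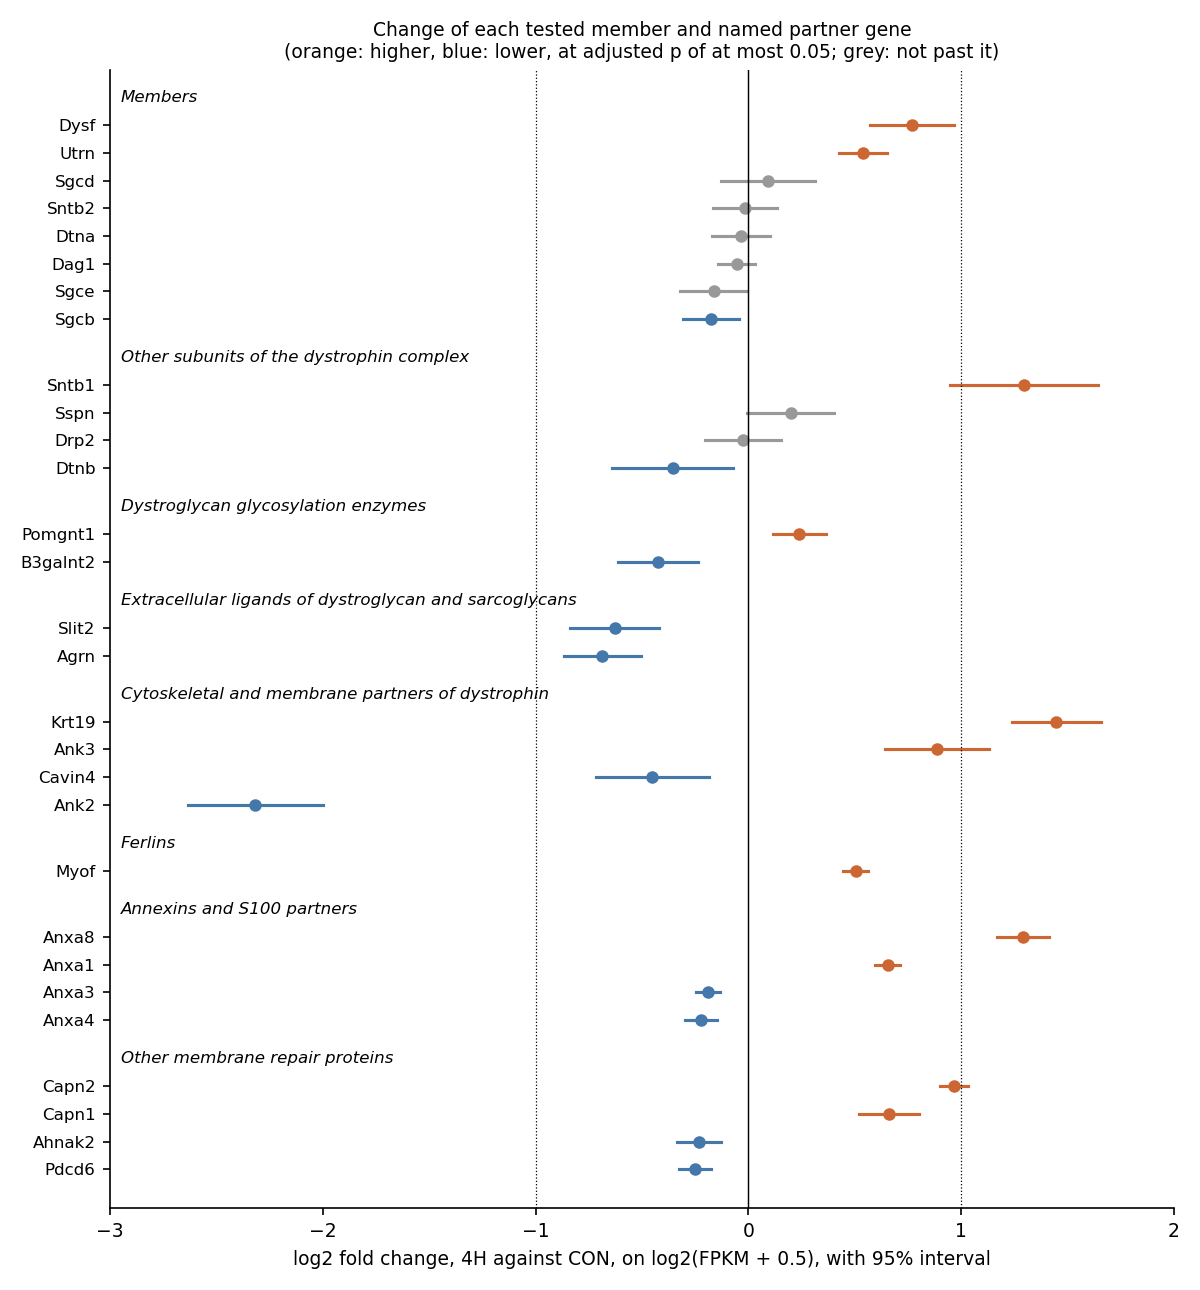
Log2 fold change of 4H against CON on log2(FPKM + 0.5) (horizontal axis; points) with its 95% interval (bars) for the 8 tested members and the named genes of the 7 lists, grouped by list on the vertical axis. Orange is higher and blue lower at an adjusted p of at most 0.05, grey is not past it, and dotted lines mark −1 and 1. The members lie between −0.18 (Sgcb) and 0.77 (Dysf), while Sntb1, Krt19 and Anxa8 lie above 1 and Ank2 lies at −2.32.

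Dystroglycan binds laminin only after its sugar chains are built, and most enzymes of that route did not pass the test. Of 17 tested, 1 was higher, 1 was lower and 15 did not pass (median 0.02). Pomgnt1, which extends O-mannose, had 27.2 ± 1.99 FPKM in CON and 32.2 ± 0.61 FPKM in 4H (0.24 on the log2 scale, adjusted p = 0.00746). B3galnt2, which adds a sugar to the core that carries the laminin-binding chain, went from 16.3 ± 0.60 to 12.1 ± 1.40 FPKM (−0.42, adjusted p = 0.00351). Exons of Pomgnt1 overlap Lurap1, and those of B3galnt2 overlap Tbce and Gm18856, on the other strand. Dpm1, named after its values were seen, was estimated at 1.43, 15.0 and 1.49 FPKM in CON and 18.2, 2.17 and 16.8 FPKM in 4H, so that libraries of one group lay far apart. Its exons overlap those of Gm20716 on the same strand.

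On the outer side of the membrane, 3 of 7 tested ligands of dystroglycan and the sarcoglycans were lower, none was higher and 4 did not pass (median −0.20). Agrn, the agrin that binds the sugar chains of dystroglycan, had 40.5 ± 2.53 FPKM in CON and 25.0 ± 2.69 FPKM in 4H (−0.69 on the log2 scale, adjusted p = 0.000208). Slit2, a guidance protein that also binds dystroglycan, went from 8.13 ± 0.87 to 5.07 ± 0.37 FPKM (−0.63, adjusted p = 0.000698). Among the cytoskeletal and membrane partners, 7 of 11 tested were higher, 2 were lower and 2 did not pass (median 0.27). Krt19, a keratin that binds dystrophin at costameres, went from 5.25 ± 0.63 to 15.1 ± 1.04 FPKM (log2 fold change 1.45). The ankyrins that hold dystrophin at the membrane moved in opposite directions, Ank3 from 3.56 ± 0.55 to 6.97 ± 0.31 FPKM (0.89) and Ank2 from 16.2 ± 1.70 to 2.88 ± 0.67 FPKM (−2.32), the libraries of the groups overlapping for neither. Cavin4, a caveolar protein of muscle, was lower (12.4 ± 1.83 and 8.86 ± 0.89 FPKM, −0.45, adjusted p = 0.0130). Itga7, another laminin receptor of muscle and also in the myoblast list, was named after its values were seen and went from 55.9 ± 2.02 to 102.2 ± 4.06 FPKM (0.87, adjusted p = 1.62e-06).

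**Figure D4:**
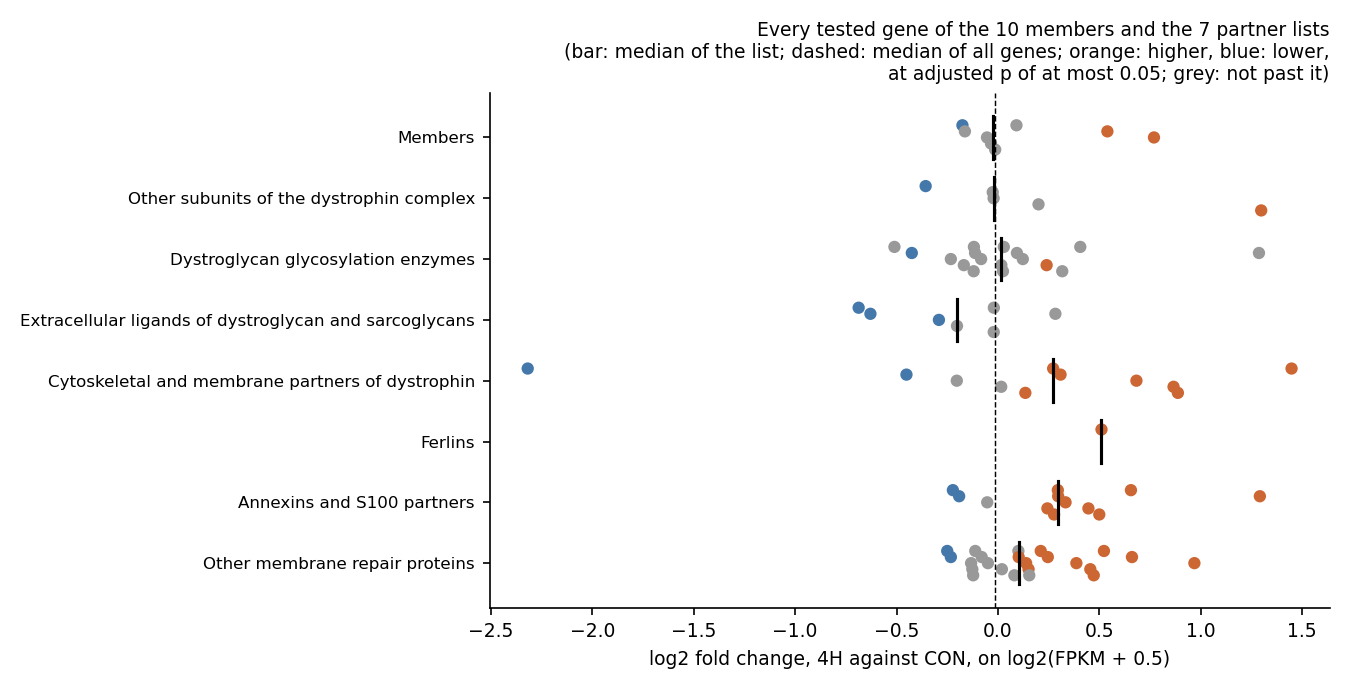
Log2 fold change of 4H against CON on log2(FPKM + 0.5) (horizontal axis) for every tested gene of the 10 members and of the 7 lists (rows), with the median of each row as a black bar and that of all genes, −0.01, as a dashed line. Orange points are higher and blue points lower at an adjusted p of at most 0.05, and grey points did not pass. The medians run from −0.20 for the ligands to 0.51 for the ferlins, where a single gene was tested.

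Dysf was not alone among membrane repair genes in being higher. Myof, encoding the related ferlin myoferlin, was the only other ferlin tested, and at 104.8 ± 0.88 FPKM in CON and 149 ± 0.94 FPKM in 4H (log2 fold change 0.51, adjusted p = 2.07e-06) it was far more abundant than Dysf. The ratio of Dysf to Myof went from 0.0154 ± 0.00016 in CON to 0.0209 ± 0.00065 in 4H, without overlap (log2 difference 0.43, exact permutation p = 0.1, adjusted p = 0.15). The 4 other ferlins of the list had at most 0.528 FPKM in any library. Of 12 annexins, which bind membranes in the presence of calcium, and their S100 partners, 9 were higher, 2 were lower and 1 did not pass (median 0.30). Anxa8 went from 49.0 ± 3.75 to 120.5 ± 2.49 FPKM (1.29) and Anxa1 from 288.9 ± 4.97 to 455.3 ± 6.01 FPKM (0.66). Anxa4 (139.0 ± 4.73 and 119.0 ± 1.53 FPKM, −0.22) and Anxa3 (248.6 ± 3.30 and 217.7 ± 1.43 FPKM, −0.19) were lower. Of 23 other repair genes tested, 11 were higher, 2 were lower and 10 did not pass (median 0.10). Capn2 and Capn1, whose calpain products can cleave dysferlin, went from 116.0 ± 3.00 to 227.5 ± 1.24 FPKM (0.97) and from 18.1 ± 0.97 to 29.0 ± 1.95 FPKM (0.66). Pdcd6, the calcium sensor ALG-2, and Ahnak2, a relative of the dysferlin partner AHNAK, were lower, with log2 fold changes of −0.25 and −0.23. Exons of Ank2, Anxa4, Capn1, Capn2, Itga7 and Sspn overlap those of a gene on the other strand, and those of Anxa3 overlap Gm42603 on the same strand, so their reads may be shared. The lists were drawn up with results of these data known, and each count stands beside 22.6% higher and 24.1% lower over all genes tested. That balance depended on the setting. It was 2617 higher and 2792 lower of 11593 genes here, 3140 and 2334 of 12457 genes after rescaling to TPM, which also changes the genes tested, and 2967 and 2598 of 16576 without a filter, while median-of-ratios scaling (2636 and 2791) and quantile normalization (2559 and 2799) kept more genes lower than higher.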

How the data were processed

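RNA-seq libraries of C2C12 myoblasts (3 CON, 3 4H) were grouped by the treatment given in the labels. The authors deposited FPKM values per gene, 1 column per library, and compared the groups with DESeq2 in their own work. The submitters' processing notes name the genome build mm10. For the aligner, the quantification tool and the annotation, nothing is given in the sources used here. Coordinates, transcript lengths and exon overlaps were taken from GENCODE for GRCm38 and promoters from RefSeq.

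FPKM is not a count, so no count model was used and depth is known only in relative terms. Without counts, no counting interval is given, and the precision rests on the spread of 3 libraries. limma 3.58.1 in R 4.3.3 was fitted without covariates to log2(FPKM + 0.5), with a variance trend, for the 11593 genes averaging 0.5 FPKM or more. Tests were two-sided, with Benjamini-Hochberg adjustment over all genes tested. Ratios within a library were compared by an exact permutation test. On simulated data for 4H against CON, the fit recovered 94.5% of 200 changed genes among 11578. Recovery of log2 fold changes as small as those of the members was not tested. Tables and plots used Python 3.11.15 with pandas 2.3.3, SciPy 1.17.1 and matplotlib 3.10.9.

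All 10 members are named. From each partner list, the 2 largest rises and falls past an adjusted p of 0.05 are named, together with the direct paralogues of members and the 3 genes most like the member with the largest change. A few genes that this rule names are not reported here. The members and lists were chosen with earlier results of these data known. Of 11 planned ratios, 5 were left out because a gene was at 0 in a library or had a mean under 0.5 FPKM. Of the 18 alternatives, 6 left out a library, and the rest changed the pseudocount, the filter, the scaling, the variance model, the block or the length and GC trend. The 4H libraries are called replicates 1, 2 and 3 after the biosample numbers of the labels. The rabbit data of the study were not analysed here.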

Additional observations from a re-analysis of the deposited data

How the results depend on the processing

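Over the 18 alternatives, 4448 to 5565 genes passed an adjusted p of 0.05, against 5409, and 2 to 4 of the members, against 3. The number of genes past both thresholds, 450, was 245 when a mean of 5 FPKM was required, which tests fewer genes, and 703 after rescaling to TPM, whose cause was not tested. Utrn and Dysf held wherever they were tested, Sgcb and Dtnb did not, and Dag1 passed under 1 alternative. Signs changed only for values that passed under no setting. After rescaling to TPM, the log2 fold change was 0.0209 for Sntb2, 0.0002 for Dtna and 0.0064 for Drp2. With each library left out in turn, it ran from −0.0099 to 0.183 for Sgcd, from −0.0555 to 0.0143 for Sntb2, from −0.0496 to 0.0033 for Drp2 and, for the ratio of Sgce to Sgcb, from −0.0494 to 0.0971. Without 1 library, the exact test of a ratio can reach no p under 0.2. The median of all genes, −0.0137, was 0.0277 after rescaling to TPM, −0.0131 with median-of-ratios scaling and −0.0251 after quantile normalization.

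Libraries with the same biosample number did not deviate together (correlations of 0.025, −0.093 and −0.126). The titles of the 4H libraries are 4H1, 4H3 and 4H4, and a pairing by title was not tested, so whether any pairing exists is unknown here. With the biosample number as replicate block, 4964 genes passed the adjusted p, 452 passed both thresholds, and 2 of the members passed, Sgcb being the one lost.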
